A study of Mus musculus with 7 samples.

Results

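The 36 adipocyte genes described here code for adipokines, lipid droplet proteins, enzymes and transporters of fat storage and release, regulators of fat cell differentiation and the thermogenic protein Ucp1. They were chosen by function from the 55450 genes in the table, and each was matched to 1 identifier by its symbol. RNA came from dorsal skin of male C57BL/6 mice aged 24 months, with 1 library per mouse. Treatment was applied onto the skin once a day for 5 days. Control mice 480, 481, 482 and 483 received the vehicle DMSO alone, and mice 476, 477 and 478 received 5 μM ABT-263 (navitoclax) in DMSO. ABT-263 is an inhibitor of anti-apoptotic Bcl-2 proteins used to clear senescent cells. Mice of both groups had their back hair clipped and removed with lotion, and the treated skin stayed under a semi-occlusive film for 5 days before it was taken. No genetic change was introduced in either group, and no mice were described as pooled. Values per mouse are always given in the order just listed.

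Mouse skin holds a layer of white fat cells below the reticular dermis, which lies above a thin sheet of skeletal muscle and grows and shrinks with the hair cycle. These cells take up fatty acids, store them as triglyceride in a single large droplet coated by perilipins, and release them again when lipases are activated through beta-adrenergic receptors and cyclic AMP. They secrete hormones and immune proteins such as adiponectin and leptin. Brown and beige fat cells also hold droplets, but burn the released fatty acids for heat through Ucp1, an uncoupling protein of the mitochondrial inner membrane.

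The regions directly upstream of the transcription start are shown for Adipoq, Lep, Retn and Pck1, because the ratios of Lep and Retn to Adipoq did not overlap between the groups, without passing the adjusted threshold, and Pck1 had the largest difference in abundance that passed the test among the listed genes. They come from RefSeq on build GRCm38.p6, which gave a window for 24 of the 36 genes, and all lie on the plus strand. Adipoq is read from chr16:23146286-23146535, Lep from chr6:29059971-29060219, Retn from chr8:3655520-3655769 and Pck1 from chr2:173152823-173153047, each 5′ to 3′ and ending at the base before the gene's first base in GENCODE M21. Capitals mark the motif of C/EBP factors, TTGCNNAA, which begins 54 bases before the first base of Lep.
Adipoq: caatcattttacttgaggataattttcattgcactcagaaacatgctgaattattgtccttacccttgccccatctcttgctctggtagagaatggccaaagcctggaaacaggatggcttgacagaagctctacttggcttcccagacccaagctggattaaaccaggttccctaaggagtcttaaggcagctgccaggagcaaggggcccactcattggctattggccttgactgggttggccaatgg
Lep: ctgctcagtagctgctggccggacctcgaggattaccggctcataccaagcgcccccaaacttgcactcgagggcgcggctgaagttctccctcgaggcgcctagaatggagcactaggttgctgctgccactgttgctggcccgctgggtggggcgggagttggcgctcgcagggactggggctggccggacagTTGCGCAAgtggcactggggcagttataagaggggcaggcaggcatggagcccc
Retn: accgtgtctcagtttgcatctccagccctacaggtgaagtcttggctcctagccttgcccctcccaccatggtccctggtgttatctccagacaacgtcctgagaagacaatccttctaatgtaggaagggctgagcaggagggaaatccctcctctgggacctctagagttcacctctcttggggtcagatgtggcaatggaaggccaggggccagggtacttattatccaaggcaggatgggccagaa
Pck1: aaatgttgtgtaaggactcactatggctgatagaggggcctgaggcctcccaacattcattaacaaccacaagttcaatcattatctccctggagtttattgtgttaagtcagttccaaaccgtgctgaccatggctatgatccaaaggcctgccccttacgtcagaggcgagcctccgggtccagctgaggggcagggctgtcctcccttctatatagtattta

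The motif TTGCNNAA was searched on both strands and occurred in 4 of the 33 windows of listed genes (12.1%), those of Cidec, Lep, Plin1 and Pparg, against 9.56% of all 32851 windows. The nuclear receptor half-site AGGTCA occurred in 7 of 33 windows (21.2%), those of Adig, Aqp7, Plin5, Pparg and Ucp1, against 14.0% of all windows. The DR1 repeat, 2 copies of that half-site with any 1 base between them and the form bound by Pparg with its partner, occurred in 0 of the 33 windows against 0.0335% of all. A match describes the letters in these windows only.

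Total counts lay between 20344364 and 43562330 per library, and each ABT-263 library was larger than each DMSO library. Abundance is given in CPM (counts scaled to a common library size) with TMM normalization, a scaling that corrects for differences in composition between libraries. The treatments were compared over 17959 genes with edgeR's two-sided quasi-likelihood test, whose p-values were adjusted over all of them by the method of Benjamini and Hochberg, at a threshold of 0.05. The log2 fold change (log2FC) is ABT-263 against DMSO and carries a standard error (SE). In bulk tissue, fewer fat cells and less RNA per fat cell cannot be told apart.

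Of the 36 adipocyte genes, 35 were abundant enough to test. Pck1 and Acsl1 were higher after ABT-263, Mgll was lower, and the other 32 did not pass. Thus 2 of 35 genes were called higher against 12.4% of all genes tested, 1 was called lower against 11.7%, and 24.2% of all genes were called in either direction. The median log2FC of the 35 genes was 0.32, beside 0.00223 over all genes tested, and 23 of them were positive. Without ABT-263 mouse 478 this median was 0.11, and without DMSO mouse 483 it was 0.65. All ABT-263 mice lay above all DMSO mice for Acsl1, Pck1 and Pparg, 3 of 35 genes against 18.7% of all genes tested. All ABT-263 mice lay below all DMSO mice for 0 of 35, against 18.4%, and the groups did not overlap in either direction for 37.1% of all genes tested. The median SE of the 35 genes was 0.409, against 0.247 over all genes tested.

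Mice of the same treatment differed widely in the genes that mark fat cells. Adiponectin (Adipoq), the most abundant hormone of white fat cells, was at 24.6, 15.2, 16.2 and 69.2 CPM in the DMSO mice and at 121, 25.3 and 192 CPM in the ABT-263 mice. ABT-263 mice 476 and 478 exceeded every DMSO mouse, whereas mouse 477 lay among the DMSO mice. Mean Adipoq was 31.3 ± 25.6 CPM after DMSO (SD, n = 4) and 113 ± 83.5 CPM after ABT-263 (SD, n = 3), a log2FC of 1.85 (SE 0.75, adjusted p = 0.111 from edgeR's quasi-likelihood test) that did not pass the threshold. Leptin (Lep), the hormone that reports fat stores to the brain, was at 4.34, 4.89, 3.23 and 11.7 CPM after DMSO and at 1.75, 1.56 and 12.01 CPM after ABT-263. It was lowest in ABT-263 mice 476 and 477 but highest in mouse 478. Its log2FC was -0.23 (SE 0.79, adjusted p = 0.853 from edgeR), with a range from -1.86 to 0.30 as each mouse was left out, the lowest without mouse 478. Resistin (Retn), a peptide secreted by rodent fat cells, was at 60.4, 23.1, 22.7 and 132 CPM after DMSO and at 123, 19.6 and 132 CPM after ABT-263. Adipsin (Cfd), complement factor D, was at 371, 164, 164 and 918 CPM after DMSO and at 1241, 190.2 and 1418 CPM after ABT-263. The groups overlapped for both genes, with log2FCs of 0.62 (SE 0.80, adjusted p = 0.601 from edgeR) for Retn and 1.232 (SE 0.80, adjusted p = 0.290) for Cfd. None of the 4 adipokine genes passed edgeR's or DESeq2's test or limma's, and 1 had an unadjusted p under 0.05 in each.

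**Figure D1:**
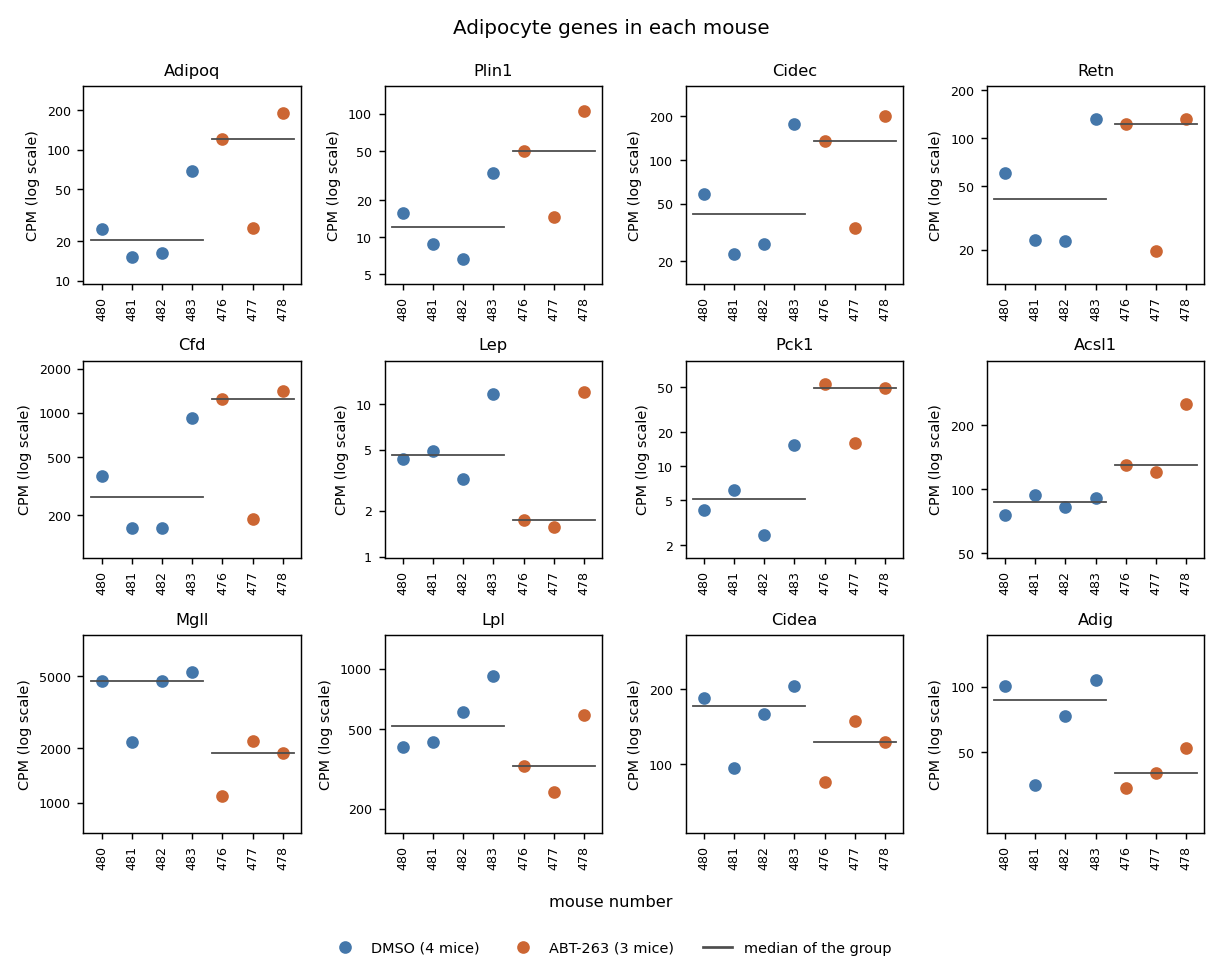
CPM (log axis) of adipocyte genes in each mouse, with 1 point per mouse, blue for the 4 DMSO mice, orange for the 3 ABT-263 mice and a line at the median of each group. Adipoq ran from 15.2 to 192 CPM, and DMSO mouse 483 and ABT-263 mice 476 and 478 stood above the other mice, while the ABT-263 mice of Acsl1 and Pck1 all lay above the DMSO mice.

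The same mice recurred across the list. DMSO mouse 483 had the highest level of the DMSO mice in 27 of 35 genes (77.1%), against 22.2% of all genes tested. ABT-263 mouse 477 had the lowest level of its group in 22 of 35 (62.9%), against 35.8% of all genes. Mice 483, 476 and 478 were the 3 highest of the 7 for 15 of 35 genes (42.9%), against 3.75% of all genes. These mice were singled out after their values were seen, and genes that are transcribed in the same cells are not independent. Among 9 listed genes chosen from general knowledge as largely restricted to fat cells (Adipoq, Lep, Retn, Plin1, Cidec, Adig, Tusc5, Adrb3 and Acvr1c), the 3 mice were the highest for 7. The summed CPM of these 9 genes was 272, 119, 156 and 555 after DMSO and 487, 144 and 731 after ABT-263, a 6.12-fold range within which the groups overlapped. Adig, whose order of mice differed from that of Adipoq, made up 101, 35.5, 73.3 and 107 CPM of these sums after DMSO. After ABT-263 it made up 34.2, 40.3 and 52.5 CPM. Each of the 9 genes had counts in all 7 mice. Their median SE was 0.760, and none passed edgeR's test, with 4 at an unadjusted p under 0.05. Of these, 3 were higher (Adipoq, Plin1 and Tusc5) and 1 lower (Adig). By DESeq2's Wald test, Plin1 and Tusc5 passed, and by limma none did.

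Genes of the lipid droplet surface fell into those that followed Adipoq from mouse to mouse and those that did not. Perilipin 1 (Plin1), which guards the droplet against lipases, was at 15.6, 8.76, 6.72 and 33.0 CPM after DMSO and at 50.2, 14.7 and 105 CPM after ABT-263. It was highest in ABT-263 mice 476 and 478, as Adipoq was, and its log2FC of 1.82 (SE 0.73, adjusted p = 0.106 from edgeR) did not pass. Cidec, which fuses droplets into a single large one, was at 58.8, 22.5, 26.4 and 176 CPM after DMSO and at 135, 34.3 and 202 CPM after ABT-263, with a log2FC of 0.80 (SE 0.83, adjusted p = 0.509 from edgeR). DMSO mouse 483 lay between the 2 higher ABT-263 mice. Perilipin 4 (Plin4), a further coat protein of fat cell droplets, was at 51.8, 54.7, 59.2 and 132 CPM after DMSO and at 113, 61.6 and 133 CPM after ABT-263. Perilipin 5 (Plin5), which tethers droplets to mitochondria in oxidative tissues such as muscle, was at 2.01 to 7.64 CPM after DMSO and at 5.82 to 10.3 CPM after ABT-263. Fitm2, an endoplasmic reticulum protein needed for droplet formation, was at 88.3, 76.7, 100.1 and 119 CPM after DMSO and at 59.2, 70.5 and 82.7 CPM after ABT-263, with a log2FC of -0.44 (adjusted p = 0.115 from edgeR). None of the 6 droplet genes, Cidea included, passed edgeR's test, and 2 were at an unadjusted p under 0.05. Plin1 alone passed by DESeq2, and by limma none did. The median of their log2FCs was 0.53.

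Among the 7 genes for uptake of fatty acids and glucose and for handling glycerol, Acsl1 was called higher. Acsl1, on chromosome 8 from 46471037 to 46536051 (GRCm38), codes for the long-chain acyl-CoA synthetase that activates fatty acids for triglyceride synthesis or oxidation. Its level was 75.7, 94.2, 82.8 and 91.0 CPM after DMSO and 130.2, 121 and 252 CPM after ABT-263. The DMSO mice lay close together and below every ABT-263 mouse. The log2FC was 0.96 (SE 0.25, adjusted p = 0.0310 from edgeR), a 1.95-fold rise. When each mouse was left out in turn, Acsl1 passed in 2 of 7 fits (without ABT-263 mouse 476 or 477), with a log2FC from 0.55 without ABT-263 mouse 478 to 1.17. Acsl1 is also expressed in heart, liver and macrophages. Macrophage markers were higher after ABT-263 too, at a summed 202 to 503 CPM after DMSO and 800.2 to 2831 CPM after ABT-263, and their part in the level of Acsl1 was not tested.

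Lipoprotein lipase (Lpl), which frees fatty acids from circulating triglyceride, was at 407, 431, 607 and 921 CPM after DMSO and at 326, 242 and 588 CPM after ABT-263. ABT-263 mice 476 and 477 lay below all DMSO mice and mouse 478 lay within their range, with a log2FC of -0.62 (SE 0.39, adjusted p = 0.267 from edgeR). The fatty acid carrier Fabp4 was at 625, 523, 549 and 1209 CPM after DMSO and at 1097, 606 and 1367 CPM after ABT-263, a log2FC of 0.49 (SE 0.38, adjusted p = 0.362 from edgeR). Tusc5 (also named Trarg1), which takes part in the insulin-dependent traffic of the glucose transporter Slc2a4 in fat cells, was at 4.95, 4.59, 3.85 and 8.997 CPM after DMSO and at 15.1, 5.62 and 20.7 CPM after ABT-263. Only DMSO mouse 483 exceeded the lowest ABT-263 mouse, and the log2FC of 1.30 (adjusted p = 0.0711 from edgeR) did not pass. Slc2a4 itself, which muscle shares with fat, was at 75.6, 161, 278 and 248 CPM after DMSO and at 144, 97.8 and 201 CPM after ABT-263. The amino acid transporter Slc36a2, at 2.10 to 5.30 CPM after DMSO and 2.57 to 9.58 CPM after ABT-263, had a log2FC of 1.12 (adjusted p = 0.132 from edgeR). For the glycerol channel Aqp7, at 2.82 to 5.14 CPM and 1.39 to 4.49 CPM, the value was -0.47 (adjusted p = 0.423 from edgeR).

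Mgll was lower after ABT-263. It codes for monoacylglycerol lipase, which carries out the last step of triglyceride breakdown, and lies on chromosome 6 from 88724412 to 88828360 (GRCm38). Its level was 4683, 2169, 4722 and 5264 CPM after DMSO and 1088, 2184 and 1883 CPM after ABT-263. DMSO mouse 481 lay below ABT-263 mouse 477, so the groups overlapped by this single pair. The log2FC was -1.29 (SE 0.38, adjusted p = 0.0418 from edgeR), a 2.45-fold lower level. Mgll passed in 1 of the 7 fits that leave out a mouse, the one without DMSO mouse 481, with log2FCs from -1.51 to -1.04, and its adjusted p was 0.0584 with limma. Mgll was the most abundant listed gene per exon length in the DMSO mice, at 829 ± 273 FPKM (SD, n = 4), TMM-scaled CPM per kilobase of merged exon, far above the 22.7 ± 18.5 FPKM (SD, n = 4) of Adipoq. Of the DMSO mice, 481 had the lowest Mgll and also the lowest summed level of sebaceous gland markers, which ran 4576, 2526, 3780.5 and 4025 CPM after DMSO and 1752, 3887 and 3182 CPM after ABT-263. ABT-263 mouse 476 had the lowest value of all mice in both measures. Other mice went the other way. In the gland sum, ABT-263 mouse 477 exceeded DMSO mouse 482 and mouse 478 exceeded mouse 481, yet each had less Mgll than that DMSO mouse. The part of gland cells in the level of Mgll was not tested.

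The lipases that act before Mgll did not pass. Hormone-sensitive lipase (Lipe) was at 108, 50.6, 49.6 and 128 CPM after DMSO and at 111, 70.3 and 147 CPM after ABT-263, a log2FC of 0.38 (SE 0.40, adjusted p = 0.514 from edgeR). Adipose triglyceride lipase (Pnpla2), which takes the first step, was at 188, 204, 232 and 375 CPM after DMSO and at 366, 184 and 350.5 CPM after ABT-263, a log2FC of 0.26 (SE 0.31, adjusted p = 0.566 from edgeR). The signal that activates them comes through Adrb3, the beta-adrenergic receptor of fat cells, which was at 1.596, 4.34, 2.82 and 11.8 CPM after DMSO and at 5.26, 2.12 and 11.9 CPM after ABT-263. Its groups covered nearly the same range. Pde3b, the phosphodiesterase through which insulin lowers cyclic AMP, was at 2.36 to 9.33 CPM after DMSO and 4.31 to 11.9 CPM after ABT-263, and the activin receptor Acvr1c was at 0.513 to 4.07 CPM and 0.832 to 3.11 CPM. Both spans overlapped, with log2FCs of 0.80 and 0.24 (adjusted p = 0.310 and 0.840 from edgeR).

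Among the 36 adipocyte genes, Pck1 showed the largest difference that passed the test. It codes for cytosolic phosphoenolpyruvate carboxykinase, which in fat cells supplies glycerol 3-phosphate so that fatty acids can be re-esterified, and lies on chromosome 2 from 173153048 to 173159273 (GRCm38), directly downstream of the promoter printed above. Its level was 4.09, 6.15, 2.46 and 15.6 CPM after DMSO and 53.7, 16.0 and 48.9 CPM after ABT-263. ABT-263 mouse 477 lay just above DMSO mouse 483, and mice 476 and 478 were well above all others. Mean Pck1 was 7.07 ± 5.86 CPM after DMSO (SD, n = 4) and 39.5 ± 20.5 CPM after ABT-263 (SD, n = 3), a log2FC of 2.48 (SE 0.66, adjusted p = 0.0336 from edgeR), 5.57-fold. Pck1 passed in 2 of the 7 fits that leave out a mouse (those without DMSO mouse 483 or ABT-263 mouse 477), with log2FCs from 2.20 to 3.21 and adjusted p from 0.0274 to 0.131, and it did not pass when all genes with a count were tested (adjusted p = 0.117 from edgeR).

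The other enzymes of triglyceride synthesis did not pass. Dgat2, which adds the last fatty acid, was at 242, 117, 156 and 119 CPM after DMSO and at 169, 218 and 267 CPM after ABT-263, a log2FC of 0.46 (SE 0.28, adjusted p = 0.260 from edgeR). Dgat1, which catalyses the same step, was at 177, 82.0, 141 and 180.5 CPM after DMSO and at 150.2, 114 and 112 CPM after ABT-263. Agpat2, the acyltransferase that makes phosphatidic acid, had a log2FC of -0.06 (adjusted p = 0.911 from edgeR), and Gpd1, which makes glycerol 3-phosphate from a glycolytic intermediate, had one of 0.18 (adjusted p = 0.819). Carbonic anhydrase 3 (Car3), abundant in white fat and in slow muscle, was at 557, 1495, 1303 and 1487 CPM after DMSO and at 1137, 1304 and 3728 CPM after ABT-263. A single ABT-263 mouse, 478, lay above the DMSO range for Car3.

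**Figure D2:**
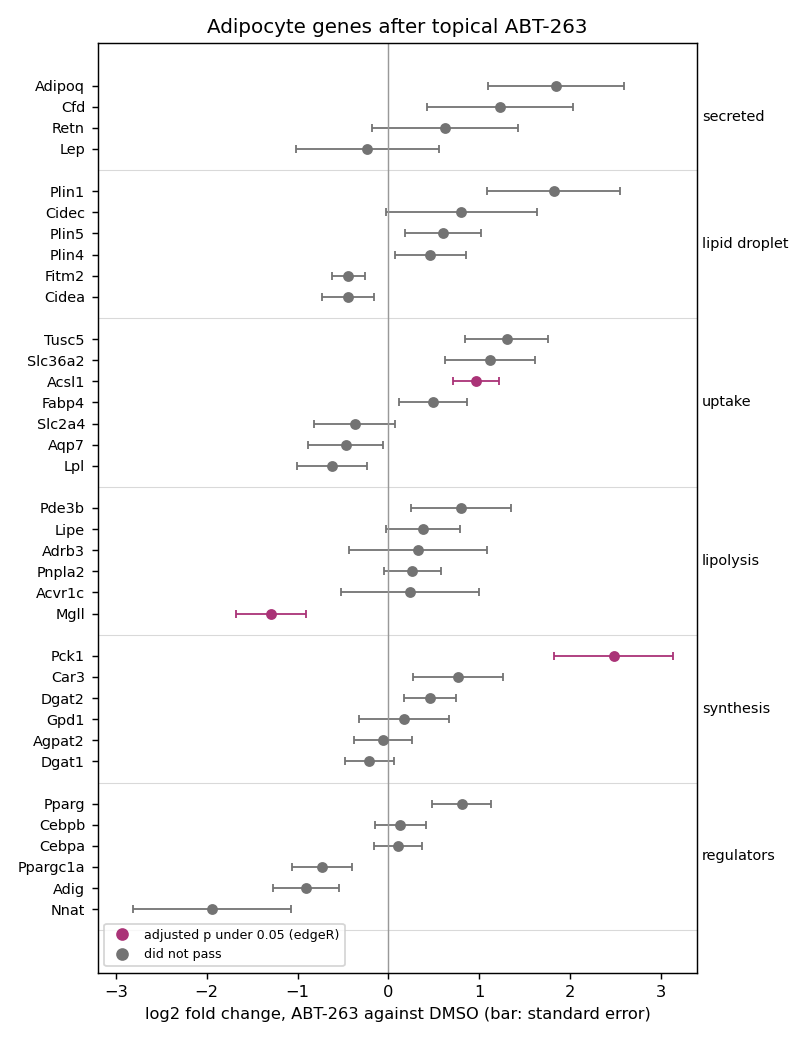
Log2 fold change (ABT-263 against DMSO) of the 35 adipocyte genes tested, grouped by role, with bars for ± 1 SE from edgeR. Points are purple for genes past the adjusted threshold and grey for the others. Purple points mark Pck1 at 2.48, Acsl1 at 0.96 and Mgll at -1.29, and most of the other bars are wide.

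None of the 6 regulators passed edgeR's test, with 2 at an unadjusted p under 0.05. By DESeq2, Nnat passed and was lower, and by limma none passed. Pparg, the nuclear receptor that drives fat cell differentiation, was at 12.8, 5.65, 8.32 and 14.8 CPM after DMSO and at 15.6, 16.5 and 22.5 CPM after ABT-263. All ABT-263 mice lay above all DMSO mice, and the log2FC was 0.81 (SE 0.32, adjusted p = 0.101 from edgeR). Its partner in differentiation, Cebpa, was at 259.5 to 526 CPM after DMSO and 301 to 467 CPM after ABT-263, and Cebpb, which acts earlier, at 225 to 396 CPM and 257 to 517 CPM. Their log2FCs were 0.10 and 0.13 (adjusted p = 0.801 and 0.759 from edgeR). Both factors are also transcribed in keratinocytes. Adig (adipogenin), a small membrane protein of fat cells, was at 101, 35.5, 73.3 and 107 CPM after DMSO and at 34.2, 40.3 and 52.5 CPM after ABT-263. Its groups overlapped through DMSO mouse 481, and the log2FC of -0.90 (SE 0.36, adjusted p = 0.105 from edgeR) did not pass with all mice but did without mouse 481. Neuronatin (Nnat), an imprinted gene expressed in fat and nerve cells, was at 2.01, 11.8, 8.78 and 14.4 CPM after DMSO and at 0.393, 1.84 and 4.90 CPM after ABT-263, a log2FC of -1.94 (SE 0.87, adjusted p = 0.138 from edgeR).

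Genes of white fat cells were next compared within each library with Ucp1 and Cidea, which brown fat cells express. Ucp1 was at 0 counts in each of the 4 DMSO mice and at 2, 2 and 0 counts in the ABT-263 mice. A count of 0 allows up to 3 counts, which is 0.123 to 0.154 CPM in the DMSO libraries, and the 2 counts of ABT-263 mice 476 and 477 were 0.0715 and 0.0504 CPM, so Ucp1 was at or under the limit of detection in all 7 mice. Intervals of this kind cover counting error only. Ucp1 was too low to be tested. Cidea, a droplet protein abundant in brown fat cells and also in sebaceous glands, was instead among the more abundant listed genes, at 184, 96.2, 159 and 206 CPM after DMSO and at 84.5, 149 and 123 CPM after ABT-263. Its log2FC was -0.44 (SE 0.29, adjusted p = 0.283 from edgeR), and its levels spanned 2.44-fold over the mice where those of Adipoq spanned 12.6-fold. The order of the mice in Cidea and Adig was close to that of the summed sebaceous gland markers, with 476 at the bottom of the 3 measures and 481 the lowest of the DMSO mice in each, while Adipoq was second highest in 476. The part of gland cells in Cidea and Adig was not tested. Ppargc1a, the coactivator of mitochondrial and thermogenic genes that is also expressed in muscle, was at 5.03, 9.10, 8.93 and 8.18 CPM after DMSO and at 4.65, 2.90 and 6.57 CPM after ABT-263, a log2FC of -0.73 (SE 0.33, adjusted p = 0.135 from edgeR).

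**Figure D3:**
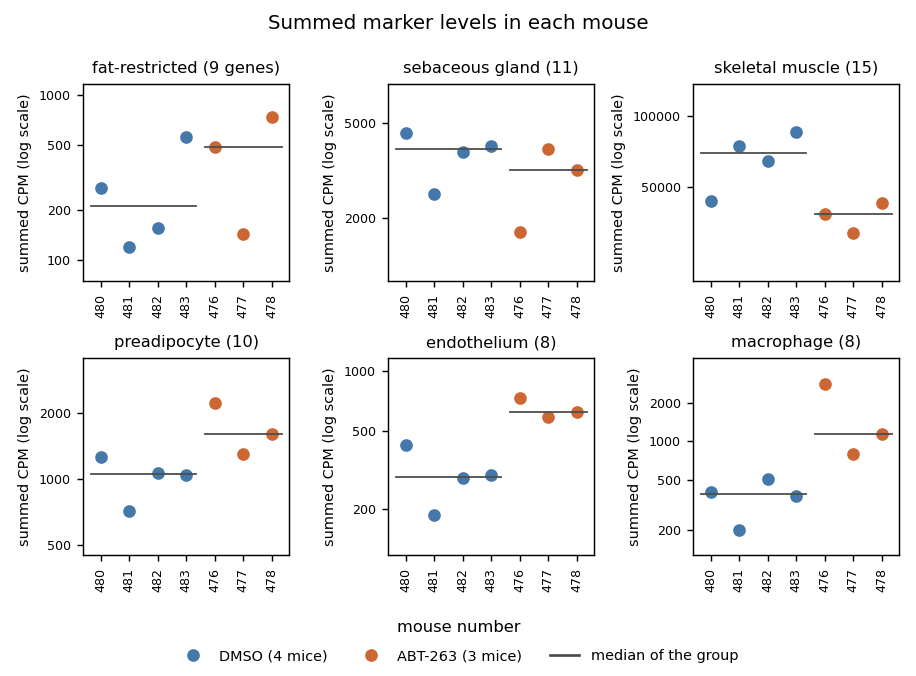
Summed CPM (log axis) of marker genes for fat cells and other cell types in each mouse, with 1 point per mouse, blue for the 4 DMSO mice, orange for the 3 ABT-263 mice and a line at the group median. The fat-restricted sum, which includes Adig, overlapped between the groups (119 to 555 CPM after DMSO and 144 to 731 CPM after ABT-263), while the macrophage sum did not.

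Ratios of counts within a library do not depend on how libraries are scaled, and 12 such ratios were compared by exact permutation over the 35 ways to split the 7 mice. The smallest two-sided p this design allows is 0.0286, and p-values were adjusted over the 12 ratios. Relative to Adipoq, Lep was lower in every ABT-263 mouse than in every DMSO mouse. The Lep/Adipoq count ratio was 0.176, 0.322, 0.20 and 0.169 after DMSO and 0.0145, 0.0618 and 0.0627 after ABT-263. The mean log2 ratio differed by -2.45 (exact permutation p = 0.0286, adjusted p = 0.114), and by -1.75 without ABT-263 mouse 476, which had the lowest ratio. The Retn/Adipoq ratio was 2.45, 1.53, 1.40 and 1.91 after DMSO and 1.02, 0.775 and 0.691 after ABT-263, a log2 difference of -1.12 (exact permutation p = 0.0286, adjusted p = 0.114). For Lpl/Adipoq the ratio was 16.5, 28.4, 37.6 and 13.3 after DMSO and 2.701, 9.58 and 3.07 after ABT-263, a log2 difference of -2.36 (exact permutation p = 0.0286, adjusted p = 0.114). The groups of Cidec/Adipoq did not overlap either, with a smaller difference of -0.74 (exact permutation p = 0.0571, adjusted p = 0.171). So 4 of the 12 ratios did not overlap, all lower after ABT-263 and all with Adipoq, whose own log2FC was 1.85, as the denominator. The log2FCs of the numerators were 0.62 for Retn, 0.80 for Cidec, -0.23 for Lep and -0.62 for Lpl. None of these genes passed edgeR's test. Over all genes tested, the ratio to Adipoq was lower without overlap for 4.24% of genes and higher for 0.111%. No ratio passed the adjusted threshold. With a smallest p of 0.0286, none could pass unless most of the 12 ratios reached that value. This outcome therefore does not show that a difference was absent.

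The Plin1/Adipoq ratio overlapped between the groups, at 0.635, 0.578, 0.416 and 0.477 after DMSO and 0.416, 0.580 and 0.548 after ABT-263, a log2 difference of -0.03 (exact permutation p = 0.914). The ratio of Cfd to Adipoq overlapped between the groups (log2 difference -0.55, exact permutation p = 0.0857), as did those of Fabp4 (-1.21, p = 0.114), Car3 (-1.07, p = 0.257) and Pparg (-0.83, p = 0.343). The ratio of Cidea, which sebaceous glands express too, to Adipoq was 7.46, 6.34, 9.81 and 2.98 after DMSO and 0.700, 5.89 and 0.640 after ABT-263. Mouse 477 lay within the DMSO range (log2 difference -2.14, exact permutation p = 0.114, adjusted p = 0.196). Because Adipoq spanned 12.6-fold over the mice and Cidea 2.44-fold, this ratio largely reflects its denominator, which was highest in mice 476 and 478. Ratios that hold Ucp1 rest on the pseudocount of 0.5, and gave exact permutation p-values of 0.657 against Adipoq and 0.286 against Cidea.

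With other fat cell genes as the denominator, a choice made after the ratios to Adipoq were seen and therefore given as values only, Lep remained lower without overlap relative to Plin1 and Cidec but not to Retn. The Lep/Plin1 ratio was 0.277, 0.558, 0.481 and 0.353 after DMSO and 0.0349, 0.107 and 0.114 after ABT-263. The Lep/Cidec ratio was 0.0738, 0.217, 0.123 and 0.0661 after DMSO and 0.0130, 0.0456 and 0.0594 after ABT-263. For Lep/Retn, at 0.0719, 0.211, 0.143 and 0.0882 after DMSO and 0.0142, 0.0798 and 0.0907 after ABT-263, mice 477 and 478 reached the DMSO range. Lpl relative to Plin1 did not overlap between the groups, whereas relative to Cidec and to Retn it did. Pck1 relative to Adipoq overlapped, at 0.166, 0.406, 0.152 and 0.225 after DMSO and 0.445, 0.633 and 0.255 after ABT-263. Relative to Retn, Pck1 was higher in every ABT-263 mouse, at 0.0678, 0.266, 0.109 and 0.118 after DMSO and 0.436, 0.817 and 0.370 after ABT-263.

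**Figure D4:**
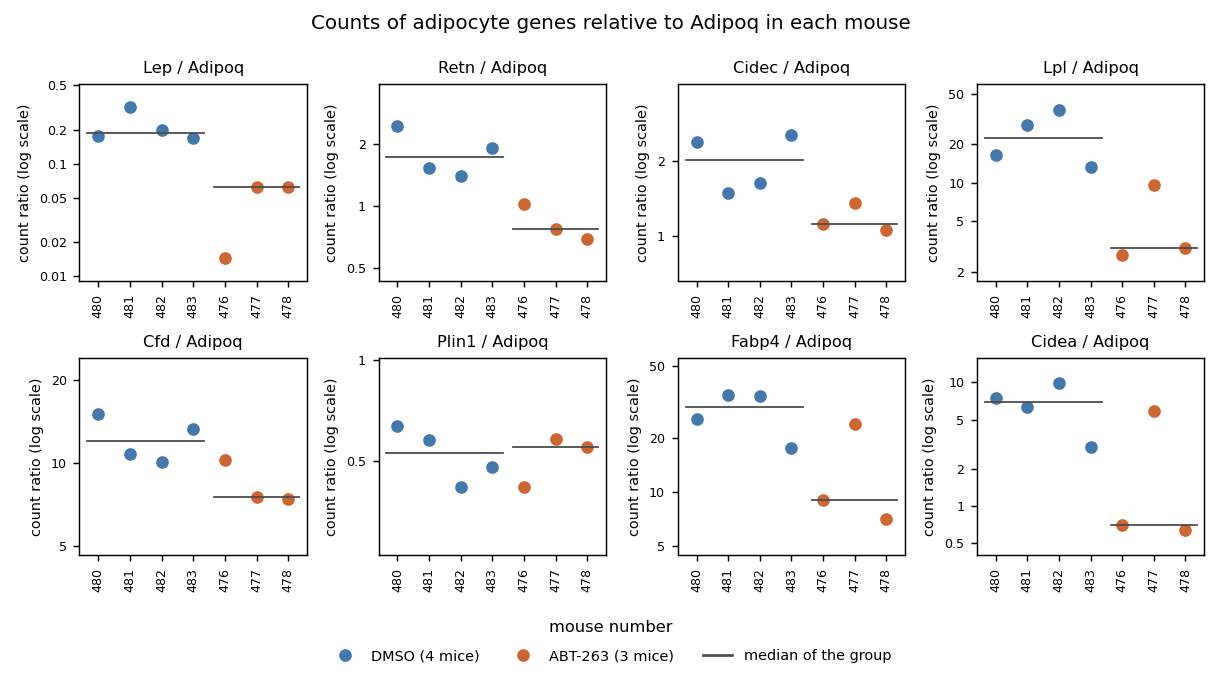
Ratio of the counts of 8 adipocyte genes to those of Adipoq in each mouse (log axis), with 1 point per mouse, blue for the 4 DMSO mice, orange for the 3 ABT-263 mice and a line at the group median. The ABT-263 mice lie below every DMSO mouse for Lep, Retn, Cidec and Lpl, and overlap them for Plin1, Cfd, Fabp4 and Cidea.

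Other genes of these pathways, 113 in 7 lists, were tested in the same fit. Of these, 4 could not be tested, 9 were higher and 10 lower, against the background shares of 12.4% and 11.7%. In the list for droplet and triglyceride synthesis, 2 of 17 genes were higher and 1 lower. Lpin2, a phosphatidate phosphatase of the pathway, rose from 9.18 ± 1.76 to 27.5 ± 6.94 CPM (SD, n = 4 and 3; log2FC 1.58, adjusted p = 0.00628 from edgeR), and caveolin 1 (Cav1), a coat protein of caveolae shared with endothelium, rose with a log2FC of 0.94. Gpat4, which takes the first step of synthesis, fell by 0.43 on the log2 scale. Among 16 genes of uptake and lipolysis, 3 were higher, with a median log2FC of 0.89. Angptl4, a secreted inhibitor of lipoprotein lipase, was at 10.2, 14.0, 10.1 and 25.1 CPM after DMSO and at 144, 44.9 and 86.4 CPM after ABT-263. All ABT-263 mice lay above the DMSO range, with a log2FC of 2.62 (SE 0.46, adjusted p = 0.0109 from edgeR). Glycerol kinase (Gk), which phosphorylates glycerol, rose from 11.3 ± 4.10 to 36.3 ± 8.89 CPM (SD, n = 4 and 3; log2FC 1.68, adjusted p = 0.0113 from edgeR). The third was Hcar2, the receptor for niacin, which lies outside the rule for named genes.

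In the list for fatty acid synthesis, 1 of 13 genes was called, Acacb, the acetyl-CoA carboxylase of the mitochondrial surface, which fell from 323 ± 73.0 to 182 ± 34.3 CPM (SD, n = 4 and 3; log2FC -0.83, adjusted p = 0.0306 from edgeR). In the insulin signalling list, 0 of 10 genes passed edgeR's test, with 3 at an unadjusted p under 0.05, 1 called by DESeq2 and none by limma. Of 18 adipogenic regulators, 1 was higher and 4 lower. Zfp521, a zinc finger protein that restrains commitment to fat cells, rose with a log2FC of 1.05, while Gata3, which also restrains it and is abundant in keratinocytes and hair follicles, fell from 404 ± 72.7 to 99.1 ± 37.8 CPM (SD, n = 4 and 3; log2FC -2.03, adjusted p = 0.00676 from edgeR). The corepressor Ncor1 fell from 175 ± 17.5 to 86.7 ± 8.39 CPM (SD, n = 4 and 3; log2FC -1.02, adjusted p = 0.00628 from edgeR). Of 15 thermogenic genes tested, 1 was higher and 4 lower. Cpt1b, the muscle and brown fat form of carnitine palmitoyltransferase, rose from 0.545 ± 0.142 to 3.06 ± 1.80 CPM (SD, n = 4 and 3; log2FC 2.48, adjusted p = 0.0106 from edgeR). Its level was low in every mouse, at 0.359 to 0.698 CPM after DMSO and 1.74 to 5.11 CPM after ABT-263. Cox8b, a respiratory chain subunit of brown fat and muscle, fell with a log2FC of -1.17 and the coactivator Ppargc1b with one of -1.19 (adjusted p = 0.0173 and 0.00622 from edgeR). Among 20 other genes enriched in fat cells, 2 were higher, the secreted chemerin gene Rarres2 (log2FC 2.49, adjusted p = 0.0180 from edgeR) and Retsat, a retinol saturase induced in fat cell differentiation (0.75, adjusted p = 0.0480).

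Several of these pathway calls were lost when 1 mouse was left out. As each mouse was left out, Gpat4 passed edgeR's test in 0 of 7 fits (adjusted p from 0.0564 to 0.119), Retsat in 1 of 7 (without ABT-263 mouse 477, with adjusted p up to 0.166) and Acacb in 2 of 7 (without DMSO mouse 480 or 481, with adjusted p up to 0.0960). Cav1 and Zfp521 did not pass without DMSO mouse 482 or ABT-263 mouse 478 (adjusted p from 0.0506 to 0.0637 from edgeR). Cox8b and Rarres2 did not pass without DMSO mouse 482 (adjusted p = 0.0515 and 0.0528 from edgeR), and the log2FC of Rarres2 was 1.63 without ABT-263 mouse 476. That of Cpt1b was 1.89 without ABT-263 mouse 478. Lpin2, Angptl4, Gk, Gata3, Ncor1, Cpt1b and Ppargc1b passed in all 7 fits. With all genes with a count tested, Gpat4 and Rarres2 did not pass (adjusted p = 0.1003 and 0.0576 from edgeR), and Retsat did not pass with upper-quartile factors, with protein-coding genes only or with length and GC trends removed (adjusted p = 0.0580, 0.0601 and 0.0900).

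Per exon length, the most abundant listed genes in the DMSO mice after Mgll were Cfd at 438 ± 387 FPKM and Car3 at 422 ± 155 FPKM (SD, n = 4), 2 neighbours that do not differ beyond their spread. After ABT-263, Cfd was at 1030.2 ± 720 FPKM and Car3 at 718 ± 506 FPKM (SD, n = 3), against 338 ± 112 FPKM for Mgll. Cidea exceeded Adipoq after both treatments in mean FPKM, at 145 ± 42.6 against 22.7 ± 18.5 FPKM after DMSO (SD, n = 4) and at 106 ± 29.0 against 81.5 ± 60.4 FPKM after ABT-263 (SD, n = 3), where the difference lay within the spread. In single ABT-263 mice the order was mixed, since Adipoq exceeded Cidea in mice 476 (87.4 against 75.8 FPKM) and 478 (139 against 110.0 FPKM) and was below it in mouse 477 (18.3 against 133 FPKM). Lep stood at 1.80 ± 1.14 FPKM after DMSO and 1.52 ± 1.78 FPKM after ABT-263.

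Some marker lists of neighbouring cells held genes that passed the test, to be read against 12.4% of all genes tested called higher and 11.7% called lower. Of 10 markers of fat cell precursors, 4 were higher, with a summed 718 to 1259.7 CPM after DMSO and 1307 to 2224 CPM after ABT-263. Of 8 fibroblast markers, 4 were higher too, at sums of 4199 to 6048 CPM and 8535 to 14042 CPM. Pdgfra was called in both lists, and which cells, precursors, other fibroblasts or further cell types, gave the higher levels was not tested. Of 15 skeletal muscle markers, 5 were lower, with sums of 43684 to 85149.5 CPM and 32018 to 42750.1 CPM. Slc2a4, Ppargc1a, Plin5, Car3, Cox8b and Cpt1b are genes that muscle expresses as well, and the part of muscle in their levels was not tested. Endothelial markers, whose cells also express Fabp4, Cav1 and Aqp7, were higher in 7 of 8, at sums of 187 to 425 CPM and 585 to 727 CPM. DMSO mouse 481 stood apart in hair follicle markers, at a summed 2773 CPM against 33.5 to 39.8 CPM in the other DMSO mice, and its fat-restricted sum was the lowest of the 7. Among the ABT-263 mice, 478 had the most, at a summed 489 CPM against 5.51 and 12.1 CPM in the others, and its fat-restricted sum was the highest of the 7. The hair follicle list had 1 of 12 genes lower, the sebaceous gland list 1 of 11 lower, and of 8 keratinocyte markers 0 passed edgeR's, DESeq2's or limma's test, with 0 at an unadjusted p under 0.05. Each listed marker that was matched had counts in at least 1 library.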

How the data were processed

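RNA from dorsal skin (polyA RNA) of 7 mice was sequenced in bulk. Per the labels and the study's methods, the authors aligned reads to mm10 with STAR 2.7.9a and counted them per Ensembl gene with featureCounts of Subread 1.6.2, and deposited the counts with no normalization. The authors also deposited log2 values after a variance-stabilizing transformation by DESeq2 1.23.10, used here for limma alone. Symbols, lengths of merged exons and GC shares were taken from GENCODE M21 (GRCm38), which is not the authors' annotation release and held 55190 of 55450 identifiers. The labels and the study's methods name different RNA extraction kits, and no batch is named.

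Counts were tested with edgeR 4.0.16 in R 4.3.3 (TMM, filterByExpr, robust quasi-likelihood fit on all 7 libraries), and 17959 of 30645 genes with a count were tested. The SE is the log2 fold change divided by the square root of F. FPKM are TMM-scaled CPM per kilobase of merged exons. In GENCODE M21, none of the 36 adipocyte genes shares exon bases with another gene on its strand. This was not checked for the other pathway genes or in the authors' annotation release. Ratios used counts plus a pseudocount of 0.5. The members, gene lists and tests were chosen with earlier results of these data known. All 36 genes are named, and in each pathway list up to 2 genes per direction with the smallest p among those called. Klf5, Ebf1, Dio2, Cox7a1 and Hcar2 were called too and lie outside this rule. The mice that recur as highest or lowest were chosen after their values were seen.

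Alternatives were DESeq2 1.42.0 (Wald test), limma 3.58.1, DESeq2's size factors, upper-quartile factors, TMM without the listed genes, all genes with a count, at least 10 counts in every library, protein-coding genes only, removal of length and GC trends (mgcv 1.9.3), counts thinned to the smallest library, a pseudocount of 1 and leaving out each mouse. Ratios to other denominators were added after seeing the data. The scripts were tested on simulated data. The p-values judge the difference between treatments against the spread between mice of a treatment.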

Additional observations from a re-analysis of the deposited data

Results flagged for a closer look

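In groups of 4 mice, the highest or lowest value was compared with its nearest neighbour, as the gap divided by the group's whole range (Dixon's ratio). Of 78 measures examined in the DMSO mice, 3 had a ratio past Dixon's 95% critical value for 4 samples, where chance gives about 1 in 20 (3.9 of 78). Plin4 had a ratio of 0.908, with DMSO mouse 483 at 132 CPM against 59.2 CPM in the next mouse. Fabp4 had a ratio of 0.851, with the same mouse at 1209 CPM against 625 CPM. The summed CPM of hair follicle markers had a ratio of 0.998, with DMSO mouse 481 at 2773 CPM against 39.8 CPM. The ABT-263 group of 3 mice is too small for this comparison.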

How the results depend on the processing

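With DESeq2's Wald test, 4 adipocyte genes were higher and 2 lower (Plin1, Tusc5 and Nnat added), and of the other pathway genes 17 were higher and 18 lower. With limma on the variance-stabilized values 0 adipocyte genes were lower (4 at an unadjusted p under 0.05) and Agpat2 changed sign to 0.039. With all genes with a count tested, 1 adipocyte gene was higher, as Pck1 no longer passed. The causes of these changes were not tested. Over the alternatives other than leaving out a mouse, 344 of the values for adipocyte genes kept direction and side of the threshold, 3 passed newly, 2 were lost and 1 reversed, and the median log2 fold change was 0.27 to 0.36. The summed CPM was not computed for DESeq2's and limma's tests.

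As each mouse was left out, 0 to 4 adipocyte genes were higher and 0 to 2 lower by edgeR. Without DMSO mouse 482 or ABT-263 mouse 478, 0 passed in both directions. At an unadjusted p under 0.05, 2 were higher and 1 lower without mouse 482. Without mouse 478, 2 were higher and 8 lower at that level, against 6 and 3 with all mice. The most were called higher without ABT-263 mouse 477 (Acsl1, Pck1, Slc36a2 and Tusc5), and without DMSO mouse 481 Mgll and Adig were lower. Over all genes, 1735 to 4169 were called, 850 to 2286 higher and 771 to 2104 lower, and of the other pathway genes 5 to 16 higher and 5 to 13 lower. Log2 fold changes that changed sign ran from -0.23 to 0.19 for Agpat2, -0.26 to 1.18 for Acvr1c, -0.31 to 0.57 for Gpd1, -0.048 to 0.29 for Cebpa, -0.19 to 0.34 for Cebpb, -1.86 to 0.30 for Lep and -0.48 to 1.14 for Adrb3. The log2 difference of Plin1/Adipoq ran from -0.14 to 0.12, that of Ucp1/Adipoq from -2.07 to 0.66, and 4 to 8 ratios did not overlap. The log2 difference of the fat-restricted sum ran from 0.21 without mouse 478 to 1.40 without mouse 477. No paired analysis was possible because the groups share no replicate numbers. The low counts of Ucp1 limit what can be said of it, and 4 against 3 mice limit each ratio to p = 0.0286 by exact permutation.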
